A study of Rattus norvegicus with 6 samples.

Results

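Klf9, Klf15, Cebpa, Cebpb, Cebpd, Fkbp5, Tsc22d3, Sgk1 and Nr3c1 are the glucocorticoid receptor, genes that glucocorticoids induce in many tissues, and transcription factors of the Klf and Cebp families. Their levels were compared between diabetic and normal rat diaphragm. These 9 genes were taken by name from 10411 genes with a probe set of their own on the array, and every probe set annotated to exactly 1 of them was used, 14 in all. Of the 14 probe sets, 9 had a mean signal above the level set for testing (105.8, the 40th percentile of all probe sets that were not controls) and represented 8 genes. The other 5, among them the only probe set of Cebpa, lay below that level.

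The diabetic group consisted of 3 male Wistar rats given an intraperitoneal injection of streptozotocin, 60 mg/kg, in citrate buffer at 8 weeks of age. The normal group consisted of 3 male Wistar rats of the same age given the buffer alone. Streptozotocin destroys the insulin-producing beta cells of the pancreas, and its direct effects on muscle cannot be told apart from those of the diabetes in this design. The left costal diaphragm was taken 4 weeks after injection, after an overnight fast in both groups and with no insulin treatment, and each rat gave 1 array. Each value is an MAS 5.0 signal, a linear intensity of a probe set scaled per array, and the trimmed mean was 500.2 on every array. The labelled tissue was checked against 11 skeletal muscle markers. All 11 lay above the testing level, with a summed signal of 170420 to 239810 on diabetic and 205470 to 233350 on normal arrays. Casq1, the calcium store protein of the sarcoplasmic reticulum, and the oxygen carrier Mb were lower in diabetic muscle (fold changes of 0.609 and 0.681), the call of Mb being lost in 5 of 6 refits with an array left out and that of Casq1 in 3, and the other 9 did not pass. Over all genes tested, 3.55% were called lower.

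Glucocorticoids such as corticosterone, the main one of the rat, enter cells and bind the receptor encoded by Nr3c1, which is held in the cytosol by Hsp90 and its co-chaperones. The bound receptor moves to the nucleus and changes transcription of many genes. Fkbp5 encodes a co-chaperone that lowers the affinity of the receptor for hormone and is itself induced. Tsc22d3 (also called Gilz) and the kinase gene Sgk1 are induced early, as are the zinc finger factors Klf9 and Klf15 and the basic leucine zipper factors Cebpb and Cebpd. In muscle, glucocorticoids are known for promoting protein breakdown and opposing insulin. Hormone levels were not part of the data, and none of these genes answers to glucocorticoids alone.

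The sequences just before the start sites of 4 members whose diabetic and normal arrays did not overlap are shown first, to set the genes beside what is known of their regulation. RefSeq promoters, windows of 250 bases before to 50 after a start site (build GRCr8), were found for 8 of the 9 genes, 13 windows in all. Cebpd had no entry in the table. Capitals mark CACCC or, on the opposite strand, its complement GGGTG, a motif bound by Klf proteins.
Klf9, chr1:230126396-230126645, plus strand: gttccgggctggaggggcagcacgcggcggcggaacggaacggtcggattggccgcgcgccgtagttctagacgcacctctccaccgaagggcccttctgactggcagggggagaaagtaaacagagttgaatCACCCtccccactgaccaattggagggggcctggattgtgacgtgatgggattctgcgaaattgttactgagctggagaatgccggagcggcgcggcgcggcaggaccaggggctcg
Klf15, chr4:124522765-124523014, plus strand: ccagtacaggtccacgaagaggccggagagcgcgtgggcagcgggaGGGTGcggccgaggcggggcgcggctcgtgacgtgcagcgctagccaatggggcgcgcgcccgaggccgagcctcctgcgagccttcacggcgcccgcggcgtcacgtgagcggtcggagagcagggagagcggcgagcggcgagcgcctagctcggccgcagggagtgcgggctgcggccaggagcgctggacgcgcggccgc
Cebpb, chr3:176816755-176817004, plus strand: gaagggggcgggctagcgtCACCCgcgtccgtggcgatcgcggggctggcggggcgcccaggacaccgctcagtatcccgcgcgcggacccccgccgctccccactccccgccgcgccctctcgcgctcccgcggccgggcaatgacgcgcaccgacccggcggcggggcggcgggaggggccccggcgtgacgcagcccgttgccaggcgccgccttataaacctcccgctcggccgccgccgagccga
Fkbp5, chr20:6543556-6543805, minus strand: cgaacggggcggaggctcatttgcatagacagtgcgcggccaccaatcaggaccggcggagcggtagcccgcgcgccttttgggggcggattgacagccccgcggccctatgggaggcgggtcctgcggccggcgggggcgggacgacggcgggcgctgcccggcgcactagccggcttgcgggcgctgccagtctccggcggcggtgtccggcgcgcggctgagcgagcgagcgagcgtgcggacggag
Both strands were searched over the whole windows. The palindromic glucocorticoid response element (AGAACA, any 3 bases, then TGTTCT) was in none of the 13 member windows and in 0.0149% of all 33469 rat windows, and its part AGAACA was in none of the 13 and in 20.7% of all. The Cebp motif TTGCGCAA and the looser TTGCNNAA, which contains it, were also in none of the 13, against 0.17% and 10.6% of all windows. CACCC was in 10 of the 13, from 7 genes, against 54.9% of all windows. The 250 bases before the start were 63.6% G and C in Klf9, 77.2% in Klf15, 76% in Fkbp5 and 80% in Cebpb, against a median of 51.2% over all rat windows. These matches describe the letters of a short window and do not show where a factor binds.

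Cebpd, Klf15 and Klf9 rose in diabetic compared with normal diaphragm. Cebpd rose 3.29-fold on its brightest probe set, Klf15 1.80-fold and Klf9 1.65-fold. Fkbp5 and Cebpb were also higher on every diabetic array than on any normal array, by 2.37-fold and 1.63-fold, but missed the threshold. Tsc22d3, Sgk1 and Nr3c1 had overlapping arrays and did not pass. On the moderated test of limma, fitted over 9519 probe sets, 4 of the 9 member probe sets (44.4%) were higher at an adjusted p under 0.05, against 3.3% of all tested, and 0 were lower, against 3.48% of all. At an unadjusted p under 0.05 the counts were 6 of 9 higher, against 12.2% of all, and 0 lower, against 11.7% of all. Diabetic arrays lay wholly above normal arrays for 6 of the 9, against 15.2% of all probe sets, and wholly below for 0, against 14.4%. In each of these counts of higher probe sets, 2 were of Cebpd, a gene the study had selected on these arrays. By gene, 3 of the 8 tested had a called probe set, against 3.46% of all genes called higher. The calls outside Cebpd were those of Klf15 and Klf9. All members were chosen with earlier results of these data known. The median log2 fold change was 0.72 over the 9 and 0.0034 over all 9519. Only the brightest Cebpd probe set kept its call in every refit with 1 array left out, and without diabetic replicate 1 or diabetic replicate 3 it was the only member call. In bulk muscle a change in the number of cells of a type and a change in RNA per cell cannot be told apart.

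**Figure D1:**
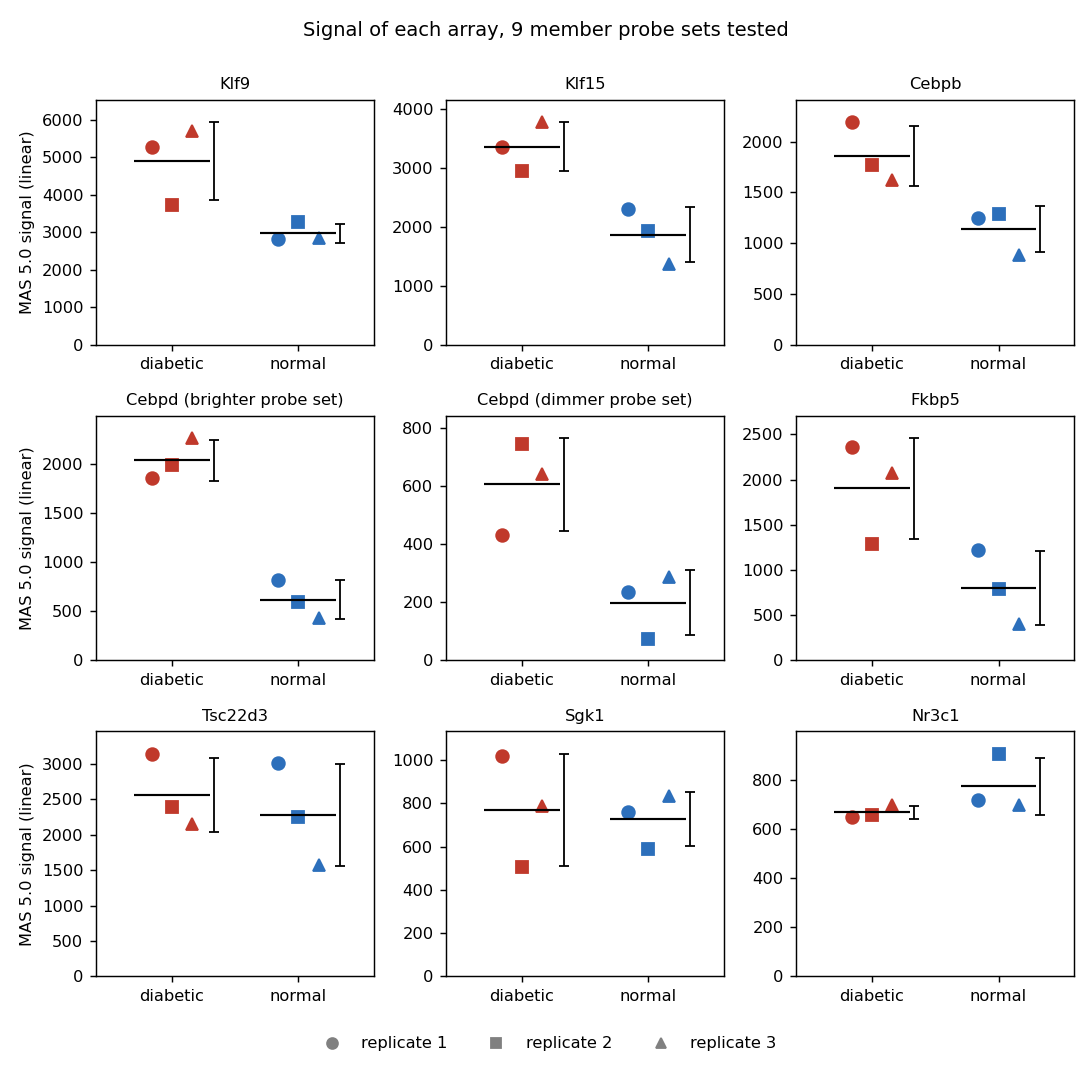
MAS 5.0 signal (linear axis from 0) of the 9 tested member probe sets on each diabetic and each normal array. Each symbol is 1 rat, the horizontal line is the mean of 3 and the bar is 1 SD; for the brighter Cebpd probe set the diabetic arrays lie between 1854 and 2264 and the normal arrays between 434 and 823.

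**Figure D2:**
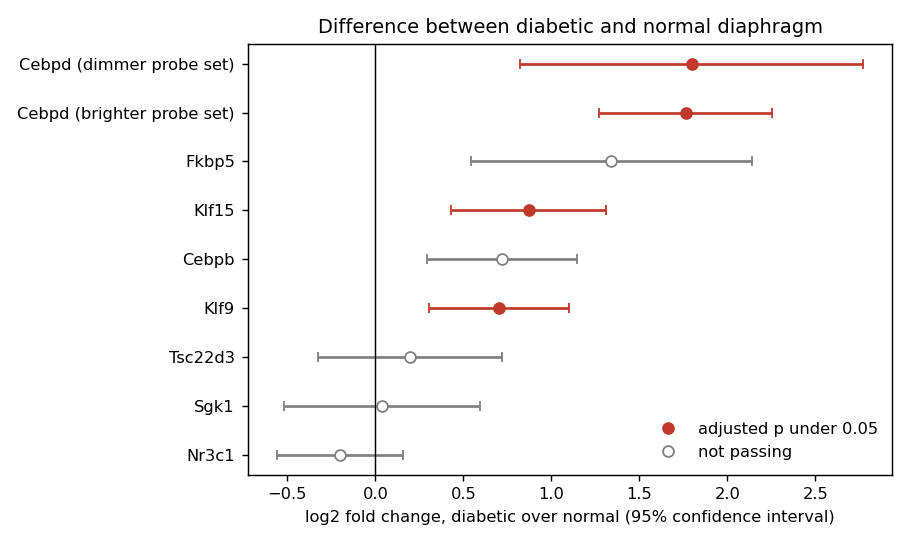
Log2 fold change, diabetic over normal, of the 9 tested member probe sets with 95% confidence intervals from limma, not adjusted for the number of probe sets. Filled points passed at an adjusted p under 0.05; the intervals of Fkbp5 and Cebpb lie above 0 although their adjusted p-values were 0.053 and 0.052.

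Nr3c1, the receptor itself, was not called. On its brighter probe set (1368221_at) the signals were 649.7, 658 and 699.7 on diabetic arrays and 718, 908 and 698 on normal arrays. Diabetic replicate 3 lay just above normal replicate 3, so the groups overlapped, and normal replicate 2 stood above the rest. Means were 669 ± 26.8 in diabetic and 775 ± 116 in normal diaphragm (SD, n = 3 each), a log2 fold change of -0.20 (limma, 95% confidence interval -0.56 to 0.16, adjusted p = 0.49). The dimmer probe set (1368222_at), below the testing level, read 62.5, 59 and 64.2 on diabetic and 59.9, 34.9 and 110.4 on normal arrays.

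Fkbp5, the induced co-chaperone, showed a wide spread in both groups. Its probe set (1388901_at) had signals of 2361, 1284 and 2072 on diabetic arrays and 1218, 788 and 402 on normal arrays. Diabetic replicate 2 lay only a little above normal replicate 1, and the highest normal array was 3.03 times the lowest. Means were 1905 ± 558 in diabetic and 803 ± 408 in normal diaphragm (SD, n = 3 each), a log2 fold change of 1.34 (limma, SE 0.36, adjusted p = 0.053). The fold change was 3.20 without normal replicate 1, where it passed (adjusted p = 0.025), and 1.90 without normal replicate 3. A filter at the 60th percentile or an offset of 64 also brought it past the threshold (adjusted p = 0.047 with each), and over all alternatives its adjusted p ranged from 0.025 to 0.15.

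Tsc22d3, a leucine zipper protein that carries part of the anti-inflammatory action of glucocorticoids, had overlapping groups and was not called. Its signals (1367771_at) were 3147, 2394 and 2152 on diabetic arrays and 3019, 2256 and 1578 on normal arrays. Diabetic and normal arrays interleaved, and replicate 1 was the highest in each. Means were 2564 ± 519 in diabetic and 2284 ± 721 in normal diaphragm (SD, n = 3 each), a log2 fold change of 0.20 (limma, 95% confidence interval -0.33 to 0.72, adjusted p = 0.66). The fold change was 0.972 without normal replicate 3 and 0.995 without diabetic replicate 1.

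Sgk1, a kinase that raises sodium transport and also answers to insulin and cell volume, had nearly equal means. Its signals (1367802_at) were 1019.8, 503 and 789 on diabetic arrays and 762, 589 and 834 on normal arrays. The highest and the lowest of the 6 arrays were both diabetic. Means were 771 ± 259 in diabetic and 728 ± 126 in normal diaphragm (SD, n = 3 each), with a log2 fold change of 0.04 (limma, 95% confidence interval -0.52 to 0.60, adjusted p = 0.94). The sign turned without diabetic replicate 1 (log2 fold change -0.19).

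Klf9, a Krüppel-like zinc finger factor, rose in diabetic diaphragm. On its bright probe set (1370209_at) the signals were 5264, 3720.2 and 5699 on diabetic arrays and 2804, 3261 and 2840.2 on normal arrays. The normal arrays lay close together and diabetic replicate 2 was nearest to them. Means were 4894 ± 1039.7 in diabetic and 2968 ± 254 in normal diaphragm (SD, n = 3 each), a log2 fold change of 0.70 (limma, SE 0.18, adjusted p = 0.044). The call passed in 1 of 6 refits with an array left out, the one without diabetic replicate 2, and not after scaling to a common median (adjusted p = 0.066). The other probe sets of Klf9 lay below the testing level, between 41.2 and 76.6 on one (1390076_at) and between 8.4 and 11.7 on the other (1387882_at) over the 6 arrays.

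Klf15, which in mouse muscle controls amino acid breakdown and is a direct target of the receptor, rose as well. Its signals (1368249_at) were 3344, 2944 and 3775 on diabetic arrays and 2302, 1921 and 1373 on normal arrays. Every diabetic array lay above every normal array, with the normal arrays spread more widely. Means were 3354 ± 415 in diabetic and 1866 ± 467 in normal diaphragm (SD, n = 3 each), a log2 fold change of 0.87 (limma, SE 0.20, adjusted p = 0.029). The fold change ran from 1.59 without normal replicate 3 to 2.04 without normal replicate 1, and the call held in 1 of 6 such refits (highest adjusted p = 0.090).

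Cebpd, a Cebp factor induced by glucocorticoids and by inflammatory cytokines, had the clearest rise. It was among the genes that the study had selected on these arrays, so its call is not independent evidence of direction. On the brightest probe set (1387343_at) the signals were 1854, 1988 and 2264 on diabetic arrays and 823, 596 and 434 on normal arrays. The lowest diabetic array was well above the highest normal array. Means were 2035 ± 209 in diabetic and 618 ± 195 in normal diaphragm (SD, n = 3 each), a log2 fold change of 1.76 (limma, SE 0.22, adjusted p = 0.0023). This difference ranked 38 from the top among the 9519 probe sets, and it passed under all 15 alternatives, with a highest adjusted p of 0.017.

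A dimmer Cebpd probe set (1368813_at) read 432, 747 and 642 on diabetic arrays and 236, 72.8 and 287 on normal arrays. The groups did not overlap, but the order of the normal arrays was not that of the brightest probe set, and the highest normal array was 3.94 times the lowest. Its log2 fold change was 1.80 (limma, SE 0.44, adjusted p = 0.038), close to that of the brightest, and it passed in 2 of 6 refits with an array left out. The dimmest Cebpd probe set (1389828_at), below the testing level, read 47.9, 89.5 and 77 on diabetic and 42.7, 20.4 and 78 on normal arrays, and these overlapped (2-sided exact permutation test, p = 0.3).

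Cebpb, the Cebp factor that acts with Cebpd early in the acute-phase response and in fat cell formation, was higher on all 3 diabetic arrays. Its signals (1387087_at) were 2192, 1770.2 and 1620.4 on diabetic arrays and 1249, 1288 and 878 on normal arrays. Normal replicate 3 was the lowest of the 6, and the gap between the groups was narrower than the range of the normal arrays. Means were 1861 ± 296 in diabetic and 1138 ± 226 in normal diaphragm (SD, n = 3 each), a log2 fold change of 0.72 (limma, SE 0.19, adjusted p = 0.052). Quantile normalization, array weights, an offset of 64 and a filter at the 60th percentile each took it past the threshold (adjusted p = 0.042 to 0.048), while all 6 refits with an array left out missed it (highest adjusted p = 0.15).

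Cebpa, a factor of mature fat and liver cells, was dim. Its signals (1369658_at) were 11.1, 5.2 and 9.3 on diabetic arrays and 8.5, 5.2 and 10.4 on normal arrays, which overlapped and lie low in the range of the array. In the fit with no filter its log2 fold change was 0.07 (limma, SE 0.63, adjusted p = 0.97). Markers of the cells that use Cebpa were read beside it. Of 10 adipocyte markers 7 had a probe set, and their summed signal was 7353 to 9033 on diabetic and 7202 to 8661 on normal arrays. Of the 5 above the testing level only Scd, an insulin-dependent desaturase, was called lower (limma, adjusted p = 0.0036), with means of 96.8 in diabetic and 644 in normal diaphragm. Its diabetic mean lay below the testing level, and the probe set was tested because of its normal arrays. All 8 liver markers lay below the testing level. Of the 9 macrophage and leukocyte markers with a probe set, 7 were tested and 0 passed (0 also at an unadjusted p under 0.05). The summed signal of the 9 was 6905 to 9272 on diabetic and 8608 to 9814 on normal arrays. Of the 2 below the testing level, Itgam overlapped. Aif1, named with it after their values were seen, lay wholly lower on diabetic arrays, with means of 41.9 in diabetic and 100.1 in normal diaphragm. Of 4 fibroblast markers the collagen gene Col1a1 and the matrix proteoglycan Lum were lower. The study had selected Col1a1 on these arrays. The summed signal of the 4 was 14474 to 17354 on diabetic and 22294 to 23066 on normal arrays. The other 2, Dcn and Pdgfra, named to complete the list, overlapped and did not pass. Their fold changes were 0.932 and 0.786 (limma, adjusted p = 0.68 and 0.33). Of 3 endothelial markers the growth factor receptor Kdr was higher (1.58-fold), a call lost in all 6 refits with an array left out, and the summed signal was 2552 to 2844 on diabetic and 1884 to 2159 on normal arrays. The other 2, Pecam1 and Vwf, likewise named to complete the list, overlapped and did not pass (limma, adjusted p = 0.53 and 0.68). Over all genes tested, 3.46% were called higher and 3.55% lower. The part of such cells in the member results was not tested.

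The normal arrays differed among themselves for several of these genes. Normal replicate 1 was the highest and normal replicate 3 the lowest of the normal arrays for Klf15, Fkbp5, Tsc22d3 and the brightest Cebpd probe set, 4 of 9 (44.4%), against 15.1% of all tested probe sets. Normal replicate 3 was the lowest of its group for 6 of the 9. The ratio of the highest to the lowest normal array had a median of 1.32 over all tested probe sets. It was 3.94 for the dimmer Cebpd probe set, a ratio that 0.798% of tested probe sets reached, 3.03 for Fkbp5 (1.48%), 1.91 for Tsc22d3 (8.67%), 1.90 for the brightest Cebpd probe set (8.99%) and 1.68 for Klf15 (16.8%). The ratios of Cebpb (1.47, reached by 31.1%) and Sgk1 (1.42, by 36.5%) were nearer the median, and those of Nr3c1 (1.3, by 53.4%) and Klf9 (1.16, by 79.5%) lay below it. The coefficient of variation was wider in normal than in diabetic muscle for 7 of the 9, against 50.1% of all, with Klf9 and Sgk1 the exceptions. Among diabetic arrays, replicate 2 was the lowest for Fkbp5, Sgk1, Klf9 and Klf15, 4 of 9, against 26.5% of all. Neither order was set before the member values were seen. Their shares among the members are therefore descriptions only, and part of the excess is built in.

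**Figure D3:**
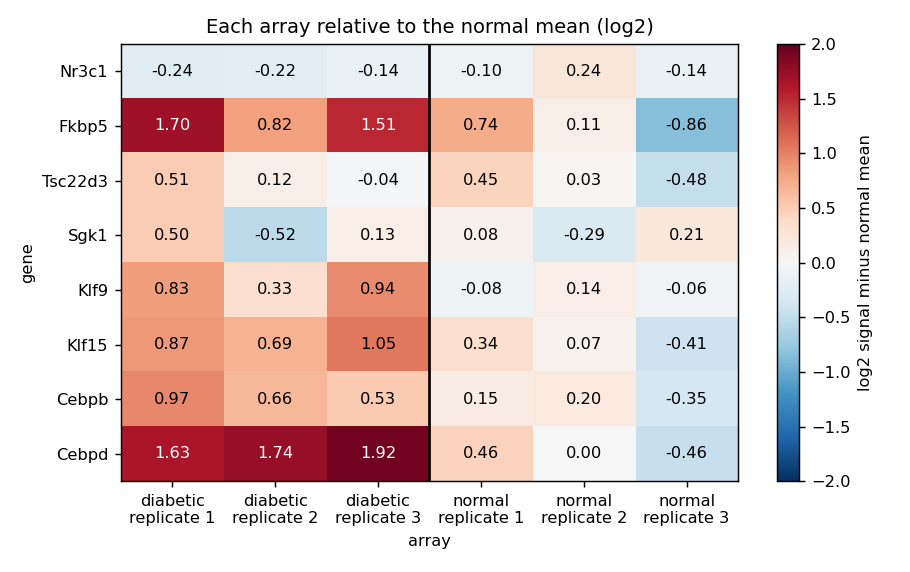
Log2 signal of each array minus the mean of the 3 normal arrays, for the brightest tested probe set of 8 member genes, with diabetic arrays to the left of the line and normal arrays to the right. Fkbp5 runs from 1.70 on diabetic replicate 1 to 0.82 on diabetic replicate 2, and among normal arrays from 0.74 on replicate 1 to -0.86 on replicate 3.

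The members were set beside a wider list of genes known to answer to glucocorticoids. Of 35 genes, 32 had a probe set and 27 were tested. This list, like the others, was chosen with earlier results of these data known, so its counts are not independent evidence. In diabetic diaphragm 8 were higher (29.6%, against 3.46% of the 7080 genes tested), 0 were lower (against 3.55%) and 19 did not pass. At an unadjusted p under 0.05, 13 were higher, against 12.8% of all genes, and 0 lower, against 11.9%. With no filter on low signals 1 gene of the list, Mstn, was called lower. The median log2 fold change was 0.53, against 0.008 over all genes. The study had selected Eif4ebp1, Trim63 and Fbxo32 on these arrays, and without them 5 of 24 were higher, with a median of 0.36. Without diabetic replicate 1, 4 of the 27 were higher. The study reported that the diabetic rats lost weight while the normal rats gained it. Hormone, lack of insulin and weight change cannot be told apart in this design as sources of a difference in the listed genes.

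Eif4ebp1, an inhibitor of translation initiation that insulin signalling switches off, had signals of 5333, 4605 and 5973 on diabetic arrays and 1897, 1489 and 888 on normal arrays. The groups were far apart, with a log2 fold change of 1.96 (limma, SE 0.25, adjusted p = 0.0024). Mt2A, a metal-binding metallothionein, read 2954, 2314 and 3899 on diabetic and 1224, 894 and 663 on normal arrays, a log2 fold change of 1.73 (limma, SE 0.25, adjusted p = 0.0041). Trim63, a ubiquitin ligase of muscle, read 8704, 6643 and 9292 on diabetic and 3231, 2652 and 1420 on normal arrays (limma, adjusted p = 0.0048). In all 3 genes normal replicate 3 was the lowest array and diabetic arrays stood clear of it.
Fbxo32, the other ubiquitin ligase gene named with atrophy, read 756, 1036 and 526 on diabetic and 437, 149.9 and 168 on normal arrays (limma, adjusted p = 0.024), where normal replicate 1 stood apart, and it did not pass in 4 of 6 refits with an array left out. The other 4 that rose, named after their values were seen, were the stress-response gene Sesn1 (2.67-fold), the interleukin 6 receptor Il6r (2.18-fold), the forkhead factor Foxo3 (2.04-fold) and the insulin receptor substrate Irs2 (1.67-fold).

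Several early or classical targets, also named after their values were seen, did not pass. Per1, a clock gene with a known response element, read 527, 519 and 441 on diabetic and 522, 389 and 542 on normal arrays. Dusp1, a phosphatase of the MAP kinases, read 2925, 1444 and 2307 on diabetic and 1803, 2460.2 and 2061 on normal arrays, and the groups of both genes overlapped. Log2 fold changes were 0.04 for Per1 (adjusted p = 0.91), 0.03 for Dusp1 (adjusted p = 0.95), 0.14 for Ddit4, an inhibitor of mTOR (adjusted p = 0.82), and -0.09 for Nfkbia, the NF-kB inhibitor (adjusted p = 0.81, all from limma). Angptl4, an inhibitor of lipoprotein lipase, read 3902, 2724 and 5688 on diabetic and 2399.8, 2063 and 254 on normal arrays, where normal replicate 3 was far below all others. The groups did not overlap, but the log2 fold change of 1.86 did not pass (limma, adjusted p = 0.13). Pdk4, Foxo1 and Cdkn1a also lay wholly higher on diabetic arrays without passing. Their fold changes were 1.93, 2.36 and 1.42 (limma, adjusted p = 0.054, 0.093 and 0.21). Of the 27 tested genes 12 lay wholly higher, against 15.9% of all genes, and 0 wholly lower, against 14.9%. Mstn, the muscle growth inhibitor, lay below the testing level, with 30.8, 4.4 and 7.3 on diabetic and 99.3, 67.3 and 159 on normal arrays. These did not overlap, and in the fit with no filter its log2 fold change was -3.36 (limma, SE 0.72, adjusted p = 0.043).

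**Figure D4:**
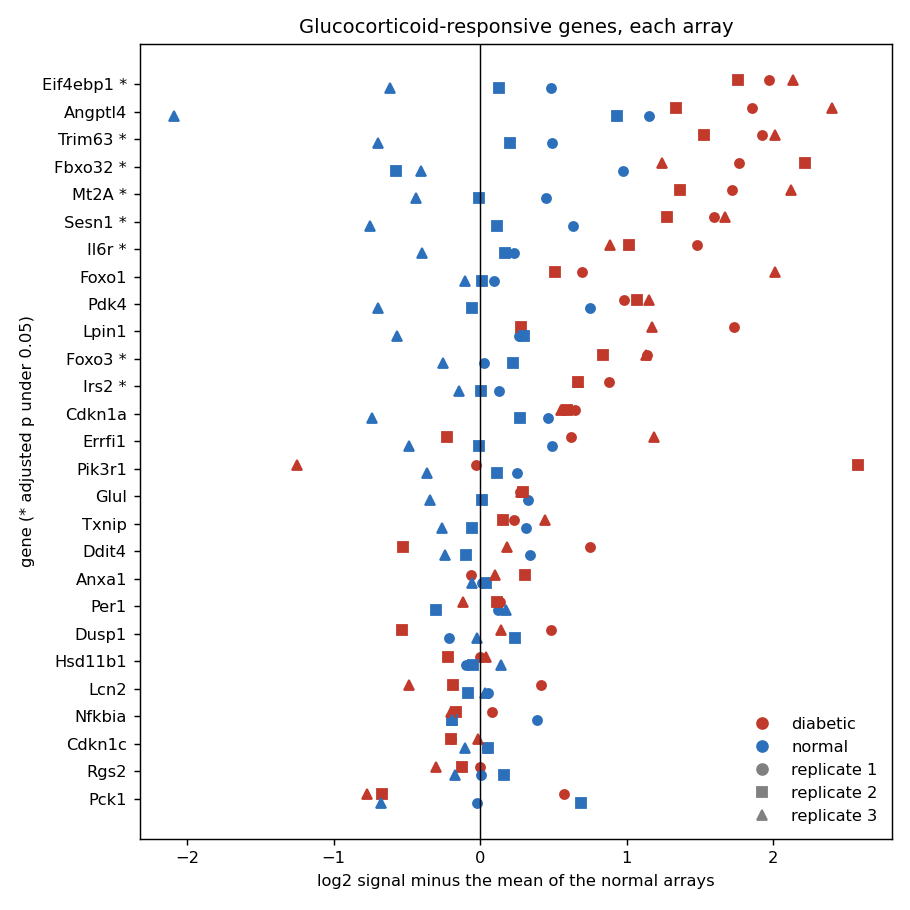
Log2 signal of each array minus the mean of the normal arrays for the 27 tested glucocorticoid-responsive genes, ordered by log2 fold change; red symbols are diabetic rats, blue symbols normal rats and the shape gives the replicate. The 8 genes with an asterisk passed at an adjusted p under 0.05, and for 15 of the 27 genes normal replicate 1 is the highest and normal replicate 3 the lowest of the normal rats.

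The order of the normal arrays seen in the members was also found in this list. Normal replicate 1 was highest and normal replicate 3 lowest for 15 of 27 genes (55.6%), against 15.8% of all genes tested. These were 6 of the 8 that rose and 9 of the 19 that did not pass. Relative to the normal mean, the median log2 signal of the 27 genes was 0.65, 0.30 and 0.55 on diabetic replicates 1, 2 and 3 and 0.27, 0.04 and -0.34 on normal replicates 1, 2 and 3. Over the 8 member genes it was 0.85, 0.49 and 0.74 on the diabetic and 0.24, 0.09 and -0.38 on the normal replicates. Over all genes the same medians lay between -0.015 and 0.056 on every array. These counts and medians are descriptions, and no test was made of them.

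Genes for the proteins around the receptor were read as another list, which shares Hsd11b1 with the glucocorticoid-responsive one. It held mostly co-chaperones, cofactors and steroid enzymes, with Nr3c2 and Tsc22d1 (named only to describe the list) besides. Of 16 tested genes, 1 was higher (6.25%, against 3.46% of all genes) and 0 were lower (against 3.55%). At an unadjusted p under 0.05, 2 were higher, against 12.8% of all genes, and 1 lower, against 11.9%. The gene that rose was H6pd, which makes NADPH for the enzyme that regenerates active glucocorticoid. It read 263, 247 and 352 on diabetic and 82.2, 110.7 and 87.5 on normal arrays, with no overlap and a log2 fold change of 1.62 (limma, SE 0.23, adjusted p = 0.0042). Its normal mean of 93.5 lay below the testing level, and the probe set was tested because of its diabetic arrays. Hsd11b1, that regenerating enzyme, read 1012, 871 and 1042 on diabetic and 950.0, 981 and 1118 on normal arrays (log2 fold change -0.06, adjusted p = 0.85 from limma), and was named after its values were seen. Normal replicate 1 highest with replicate 3 lowest was found for 1 of the 16 (6.25%, against 15.8% of all genes). The same order was found for 4 of 8 amino acid breakdown genes (50%), a list described below. It held for 2 of 5 adipocyte, 1 of 3 endothelial and 2 of 11 skeletal muscle markers. It held for 0 of 9 other Klf and Cebp genes, 0 of 7 macrophage and leukocyte markers and 0 of 4 fibroblast markers. Since 15.8% of all genes had this order, it could not have been confined to the members and the glucocorticoid-responsive list. Counts in lists this short say little about its share in them.

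A list of 15 other genes named with the Klf and Cebp families was also read, and none of those tested passed. Of 9 tested, 0 were higher and 0 lower on limma's adjusted p, against 3.46% and 3.55% of all genes. At an unadjusted p under 0.05, 4 were higher, against 12.8% of all genes, and 0 lower, against 11.9%. Diabetic arrays lay wholly above normal arrays for 4 of the 9, against 15.9% of all genes, and wholly below for 0, against 14.9%. The median log2 fold change of the 9 was 0.495, against 0.008 over all genes, so these genes also leaned higher. Of 8 tested genes for amino acid breakdown that Klf15 controls in the mouse, Prodh was higher and Gpt lower, which is 12.5% each way, against 3.46% and 3.55% of all genes. At an unadjusted p under 0.05, 2 were higher, against 12.8% of all genes, and 1 lower, against 11.9%. Diabetic arrays lay wholly above normal arrays for 2 of the 8, against 15.9% of all genes, and wholly below for 1, against 14.9%. The median log2 fold change of the 8 was -0.086. Prodh, a proline-degrading enzyme, read 732, 667 and 798 on diabetic and 577, 351 and 314 on normal arrays (log2 fold change 0.87, adjusted p = 0.047 from limma). Gpt, alanine aminotransferase, read 986, 856 and 679 on diabetic and 1953, 1559 and 1333 on normal arrays (log2 fold change -0.94, adjusted p = 0.020 from limma). Both lay apart without overlap, in opposite directions, but did not pass in 5 and 4 of 6 refits with an array left out. The branched-chain aminotransferase Bcat2, named after its values were seen, had a log2 fold change of -0.12 (limma, adjusted p = 0.78).

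The tested genes with the profile most like each member that rose were found by the root mean square difference of log2 signals over the 6 arrays, each gene taken relative to its normal mean. For the brightest Cebpd probe set these were LOC102549726, the antioxidant enzyme Srxn1 and Mt2A, at 0.16, 0.163 and 0.175. For Klf15 they were Retreg1, a receptor for breakdown of the endoplasmic reticulum, the tRNA methyltransferase subunit Trmt6 and the ubiquitin-conjugating enzyme Ube2j1, at 0.105, 0.121 and 0.126. For Klf9 they were Arhgap35, Nop58 and Xdh, at 0.0927, 0.134 and 0.139. The dimmer Cebpd probe set had no close match, its nearest being Ung at 0.421. Such likeness over 6 arrays rests mostly on the difference between the groups.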

How the data were processed

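Total RNA of 3 diabetic and 3 normal diaphragms was hybridized by the authors to Affymetrix rat expression arrays. The deposited values are MAS 5.0 signals, intensity values on a linear scale, scaled per array by the authors. For the scaling target, the value is not given in the sources used here.

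From the deposited intensity values, 136 under 1 were raised to 1 before log2 transformation, and the arrays were not normalized again. The 57 control probe sets and those whose mean over the 6 arrays did not exceed the 40th percentile were left out. For the 9519 remaining, limma 3.58.1 was run in R 4.3.3 (lmFit, and eBayes with a trend), with Benjamini-Hochberg adjustment over all of them. The methods used BAM, which was replaced by limma. A fold change is the diabetic mean signal over the normal mean signal, and standard errors (SE) refer to log2 values. Both groups held 3 separate rats, so the number of arrays limits the precision, and with 3 against 3 an exact permutation test cannot go below 0.1.

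Of the probe sets that were not controls, 12783 had 1 gene in the platform annotation, 312 several and 2771 none, and none was named from several. For a gene in a list, the brightest probe set stood for it. Named genes were all members, the 4 called genes of each list, at most, whose log2 fold changes were furthest from 0, and the 3 genes nearest to each member that passed. Genes outside this rule are marked in the text. The members and lists were chosen with earlier results of these data known.

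The alternatives were quantile normalization, a common median, offsets of 16 and 64, no filter or one at the 60th percentile, no trend, weights per array, a block for the replicate number, leaving out every array in turn, and, for lists, averaging all probe sets of a gene.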

Additional observations from a re-analysis of the deposited data

How the results depend on the processing

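The count of 4 member probe sets higher in diabetic muscle fell to 1 with no filter on low signals, to 1 with no trend in the variance prior and to 1 with the replicate number as a block. With an array left out it ranged from 1 to 3. The fit with no filter tested more probe sets, and those with an array left out had fewer samples; for the others the cause was not tested. The count was within 1.5 times of 4 under the other alternatives, and the count of lower member probe sets was 0 under all of them. The brightest Cebpd probe set passed in every case. Klf9 also missed the threshold after scaling to a common median (adjusted p = 0.066). The sign of Sgk1, never called, turned after quantile normalization (log2 fold change -0.0018) and, with an array left out, ranged from -0.19 to 0.32, and that of Tsc22d3 ranged from -0.044 to 0.42. The single Prodh call was lost with quantile normalization, a common median, no filter, no trend, array weights, the replicate block and averaging of all probe sets per gene.

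Samples with the same replicate number did not deviate together (correlations of 0.0977, -0.195 and -0.068), so the numbers were not taken as pairs. With the replicate block 162 probe sets were higher and 170 lower, against 314 and 331 without it. With no filter 200 were higher and 227 lower. With an array left out, 135 to 226 were higher and 177 to 236 lower. Of the glucocorticoid-responsive genes 1, Mstn, was called lower with no filter, while the 5 dim member probe sets were not called in that fit (adjusted p = 0.52 to 1). A gene that did not pass is not shown to be unchanged.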
